A study of Mus musculus with 27 samples.

Results

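Messenger RNA of 6 metabotropic glutamate receptor genes, Grm2, Grm3, Grm4, Grm5, Grm7 and Grm8, was followed in cortex of 5xFAD mice after microinjection of the retromer stabilizers R55 and R33. The genes were taken by symbol, as the entries of the deposited table that read grm2, grm3, grm4, grm5, grm7 and grm8 in lower case. They are 6 of its 26264 symbols, and all 6 are among the 12976 genes tested, whose mean level reached 1 FPKM. FPKM are fragments per kilobase of transcript, scaled to the total counted in a library. Levels of different genes can thus be set side by side only as far as the transcript lengths used are right. All mice were female 5xFAD mice on a C57BL6 background, 16 weeks old, all carrying the 5xFAD transgenes, controls included, and no wild-type tissue was used here. They received 500 nL of vehicle (3% DMSO with beta-cyclodextrin in saline) or of R33 or R55 at 10 mM into the cortex of one hemisphere. After 24 h a cortical block of about 1 mm3 was taken around the injection site and from the uninjected, contralateral hemisphere, and each block gave 1 library. The 27 libraries used came from 4 mice given vehicle, 5 given R33 and 5 given R55, and for 1 R33-treated mouse, AE, the injected hemisphere only was used.

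Metabotropic glutamate receptors are G protein-coupled receptors that sense synaptic glutamate and tune transmission over slower times than the ion-channel receptors do. The group I receptor mGlu5, encoded by Grm5, sits mainly around the postsynaptic density, couples through Gq to phospholipase C and calcium release, and is tied by Homer and Shank scaffolds to the NMDA receptor. The group II receptors of Grm2 and Grm3 and the group III receptors of Grm4, Grm7 and Grm8 couple through Gi/o to lower cyclic AMP and mostly restrain transmitter release from presynaptic terminals, and Grm3 is also expressed by astrocytes. In Alzheimer's disease research mGlu5 is known as a partner through which amyloid-beta oligomers and the prion protein act on synapses.

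Libraries held between 15932196 and 38077026 fragments on genes, with a median of 27441308. The injected library of the R33-treated mouse labelled AD (a mouse label, not the disease) stood apart: against the other 4 libraries of its group the median log2 difference was 0.52 for the shortest of 5 length groups of genes (median 1197 bp) and -0.31 for the longest (median 6838 bp). All 6 receptor genes were lower in it than the mean of those libraries, by log2 differences from -0.29 for Grm8 to -1.46 for Grm5. Several values that turn on this mouse are followed by the value without it. Others, among them the R33 means in FPKM and the R33 differences between hemispheres, are given with it only. By summed striatal neuron markers (6 of 6 detected) the injected libraries of vehicle-treated mouse L (191 FPKM) and R33-treated mouse N (281 FPKM) also stood apart, since the other 25 libraries held 35.7 to 96.3 FPKM. All 6 striatal markers were lower in R55 against R33 (median -0.44, 0 called, limma), and their part in the receptor values was not tested. The contralateral library of mouse L had the lowest summed astrocyte (253 FPKM) and oligodendrocyte (478 FPKM) markers of the 27 libraries. It also had the highest summed excitatory neuron markers (998 FPKM), and the part of this in the contralateral values was not tested. Of the marker lists of cortical excitatory and GABAergic neurons, astrocytes, oligodendrocytes, microglia and endothelium 0 genes were listed at 0 in any group of libraries, and the 4 red blood cell globin genes were listed at 0 in every library. Why the globin genes stood at 0 was not tested, so these values are no measure of blood in the tissue. Of the mice, 9 carry labels of 1 letter and 5 of 2 letters, and what this difference in labelling marks is not given in the sources used here.

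By FPKM, Grm2, Grm3 and Grm5 were at about the same level, and Grm7, Grm4 and Grm8 lay below them. Mean FPKM over the 27 libraries was 23.6 for Grm3, 20.7 for Grm2 and 20.3 for Grm5, then 11.4 for Grm7, 5.70 for Grm4 and 4.27 for Grm8. Grm3 exceeded Grm2 in 19 of 27 libraries and Grm2 exceeded Grm5 in 17 of 27, so the order within these 3 genes was not fixed. The lengths behind these FPKM were 3322 bp for Grm2, 3536 bp for Grm3 and 8524 bp for Grm5. Canonical transcripts of GENCODE release M39 hold 4774, 5376 and 8526 bp, so the likeness of the 3 levels depends on the length used. Grm5 exceeded Grm7, and Grm7 exceeded Grm4, in 27 of 27 libraries, and Grm4 exceeded Grm8 in 25 of 27. Per length, Grm3 was at percentile 75.9 of the tested genes and Grm8 at percentile 27.9. The ratio of the highest to the lowest library ran from 2.31 for Grm7 to 3.90 for Grm5, and both of these genes were lowest in the injected library of mouse AD. Without that library the ratio was 2.34 for Grm5, 1.61 for Grm7 and 1.59 for Grm3, and Grm8 had the widest ratio, 3.78. In fragments, Grm8 rested on 173 to 1264 per library and Grm5 on 1847 to 8571. Because the blocks are bulk tissue, fewer cells of a type and less RNA per cell cannot be told apart in any of these values.

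**Figure D1:**
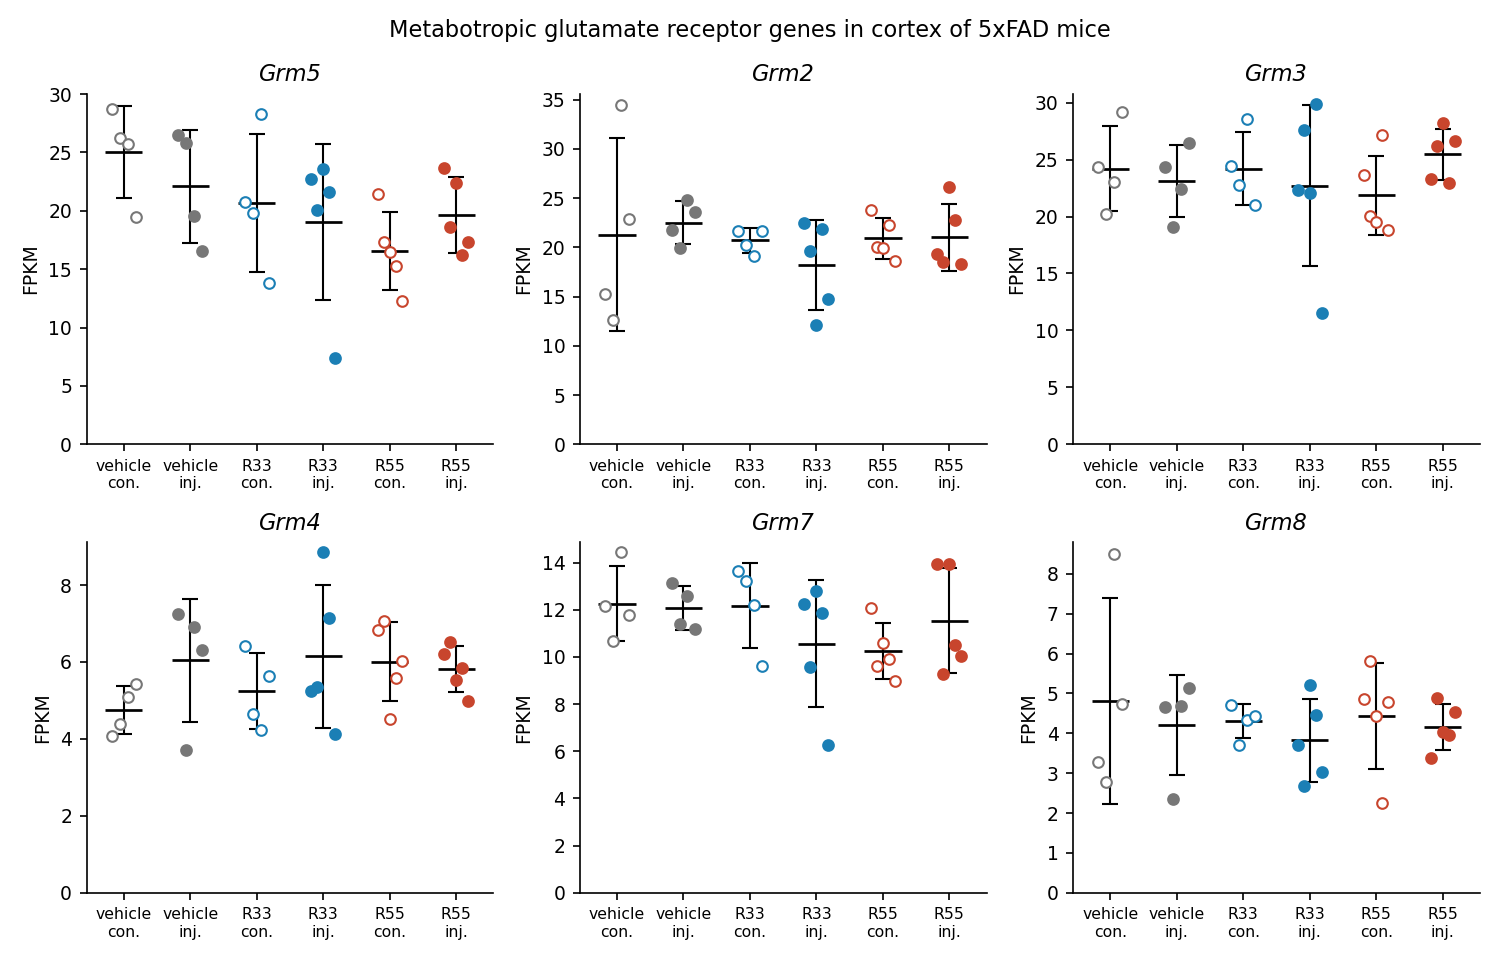
FPKM (linear axis from 0) of each receptor gene in every library, by treatment and hemisphere (con., contralateral, open; inj., injected, filled). Black lines are the group mean and error bars the SD of 4 or 5 libraries. In the contralateral hemisphere 4 of 5 R55 libraries lie below every vehicle library for Grm5 and for Grm7, and 4 of 5 lie above for Grm4. How many of all tested genes do so was not counted.

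Grm5 and Grm7 are the members whose levels varied together most closely over mice, so the sequence around the start of their canonical transcripts is shown. The genes lie on GRCm39 at chr7:87233376-87784594 (Grm5, plus strand, 10 exons in the canonical transcript of GENCODE release M39) and chr6:110622542-111544191 (Grm7, plus strand, 10 exons). Grm8 is on the same chromosome as Grm7, at chr6:27275118-28135177 on the minus strand, and the others are at chr9:106520294-106533870 (Grm2, minus), chr5:9534069-9776088 (Grm3, minus) and chr17:27641361-27740377 (Grm4, minus). Each window below runs from 250 bases before to 50 bases from the start, 5′ to 3′ on the plus strand, at chr7:87233351-87233650 and chr6:110622292-110622591. Capitals mark GC boxes (GGGCGG or CCGCCC), the letters that Sp1-family factors are known to bind.
Grm5: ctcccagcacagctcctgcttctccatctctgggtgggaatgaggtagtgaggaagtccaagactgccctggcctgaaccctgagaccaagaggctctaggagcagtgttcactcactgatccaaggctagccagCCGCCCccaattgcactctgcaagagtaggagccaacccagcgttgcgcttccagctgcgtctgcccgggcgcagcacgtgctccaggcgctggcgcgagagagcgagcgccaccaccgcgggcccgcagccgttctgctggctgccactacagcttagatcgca
Grm7: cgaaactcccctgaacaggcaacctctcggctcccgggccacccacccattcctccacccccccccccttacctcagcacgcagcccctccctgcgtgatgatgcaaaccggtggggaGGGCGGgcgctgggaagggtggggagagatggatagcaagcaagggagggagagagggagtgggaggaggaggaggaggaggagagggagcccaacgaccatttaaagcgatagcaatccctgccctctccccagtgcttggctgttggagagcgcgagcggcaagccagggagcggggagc
Each window held 1 GC box, as 42.7% of 21093 protein-coding promoter windows of the same length held at least 1, counted on both strands. GC content was 63.3% for Grm5 and 65.7% for Grm7, and the median over all windows was 54.3%. The windows held 17 and 14 CpG dinucleotides, against a median of 11, and Grm5 also held 1 E box (CACGTG), found in 7.92% of windows. None of the 6 receptor windows held the cyclic AMP response element TGACGTCA, its half-site TGACG or CGTCA, or the TATA box letters TATAAA or TTTATA, which are in 2.47%, 22.7% and 13.2% of all windows. Grm2 had the highest GC content of the 6 (72.0%) and 4 GC boxes, and Grm3 and Grm4 had 0.

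R55 was compared with vehicle to ask which transcripts the drug shifts within a day. Grm5 was the receptor gene with the largest difference and was lower after R55. In vehicle-treated mice J, M, L and AH it measured 26.5, 25.8, 19.5 and 16.6 FPKM in the injected hemisphere and 28.7, 26.2, 25.7 and 19.4 FPKM in the contralateral one. In R55-treated mice P, AA, Q, R and AB it measured 23.6, 18.6, 22.4, 16.2 and 17.3 FPKM in the injected hemisphere and 21.5, 17.3, 16.5, 15.3 and 12.3 FPKM in the contralateral one. The treatment groups overlapped, and the vehicle-treated mouse AH lay among the R55-treated mice. With the hemispheres of a mouse averaged, the level of Grm5 was 23.6 ± 4.25 FPKM with vehicle (SD, n = 4 mice) against 18.1 ± 3.08 FPKM with R55 (SD, n = 5 mice), and 3 of 5 R55-treated mice were below every vehicle control. Mouse means without overlap between R55 and vehicle were found for 0 of 6 receptor genes and for 2.44% of all tested genes.

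The fold change of Grm5 after R55 was 0.777 on the scale of FPKM with 1 added, a log2 fold change of -0.36 (SE 0.173, 95% interval -0.72 to -0.0090). It did not pass adjustment over all tested genes (unadjusted p = 0.0448, adjusted p = 0.586, limma), and both libraries of a mouse enter this fit as if they were independent. In that comparison 0 of 6 receptor genes were called (1 at an unadjusted p-value under 0.05, Grm5, and the same by limma voom). Of all tested genes 0.00771% (1 gene) were called and 8.45% had an unadjusted p-value under 0.05. That count was unstable: 50 genes (0.385%) were called and 12.8% had an unadjusted p-value under 0.05 without R33-treated mouse AD, which enters the estimate of the spread, and 12 genes were called with R33 left out of the fit. The adjusted p-value of Grm5 was then 0.183 and 0.308 (limma). When the correlation within mice was modelled, the interval of Grm5 was -0.76 to 0.031, and with 1 value per mouse it was -0.81 to 0.080. The transcript of Grm5 used by the authors is 8524 bp long, at percentile 95.4 of the tested genes, and with each library's trend on transcript length removed the log2 fold change was -0.23 (adjusted p = 0.739, limma). Among mice with 1-letter labels the log2 difference between R55 and vehicle was -0.39 (3 mice against 3), and among those with 2 letters it was -0.14 (2 mice against 1).

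The other 5 receptor genes differed by less. The group II gene Grm2, a presynaptic autoreceptor, measured 21.9 ± 5.92 FPKM with vehicle (SD, n = 4 mice), 19.3 ± 2.26 FPKM with R33 (SD, n = 5 mice) and 21.0 ± 2.02 FPKM with R55 (SD, n = 5 mice). The vehicle mice had the widest range, 16.3 to 29.7 FPKM, and every R55-treated mouse lay within it. Grm3, the group II gene shared by neurons and astrocytes, measured 23.7 ± 3.42, 23.8 ± 5.05 and 23.7 ± 0.886 FPKM in the same order. The log2 fold changes after R55 were -0.016 for Grm2 (95% interval -0.30 to 0.27, adjusted p = 0.979, limma) and -0.0011 for Grm3 (-0.26 to 0.26, adjusted p = 0.998). Within the label series both genes were above vehicle among mice with 1-letter labels (0.12 and 0.11) and below it among those with 2 letters (-0.29 and -0.28, with 1 vehicle mouse).

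Of the group III genes, Grm7 encodes a presynaptic receptor of low glutamate affinity at the active zone. Vehicle libraries of Grm7 measured 13.1, 11.4, 12.6 and 11.2 FPKM in the injected hemisphere of J, M, L and AH and 12.1, 10.7, 14.5 and 11.8 FPKM in the contralateral one. R55 libraries measured 13.95, 9.28, 13.92, 10.51 and 10.04 FPKM in the injected hemisphere of P, AA, Q, R and AB and 12.1, 9.63, 10.6, 9.89 and 8.99 FPKM in the contralateral one. Mice P and Q were above all vehicle libraries of the injected hemisphere and the other R55-treated mice were below them. Its log2 fold change was -0.16 (SE 0.109, adjusted p = 0.646, limma), and 3 of 5 R55-treated mice were below every vehicle control. The share of all tested genes with such a count was not taken. Among mice with 1-letter labels the log2 difference of Grm7 between R55 and vehicle was -0.069 (3 mice against 3). Among those with 2 letters it was -0.25 (2 mice against 1). Grm4, which encodes a presynaptic receptor that responds to L-AP4, was the 1 member with a positive value, 0.13 (SE 0.118, adjusted p = 0.700, limma), at 5.39 ± 0.903 FPKM with vehicle (SD, n = 4 mice) against 5.91 ± 0.730 FPKM with R55 (SD, n = 5 mice). Grm8, the least abundant of the 6 and a presynaptic receptor as well, measured 4.51 ± 1.69 FPKM with vehicle (SD, n = 4 mice) and 4.29 ± 0.826 FPKM with R55 (SD, n = 5 mice), and its log2 fold change was -0.015 (95% interval -0.33 to 0.30, adjusted p = 0.983, limma). In all, 5 of 6 receptor genes had a log2 fold change below 0, with a median of -0.016, while 39.8% of all tested genes were below 0. Over the tested genes the median was 0.026.

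**Figure D2:**
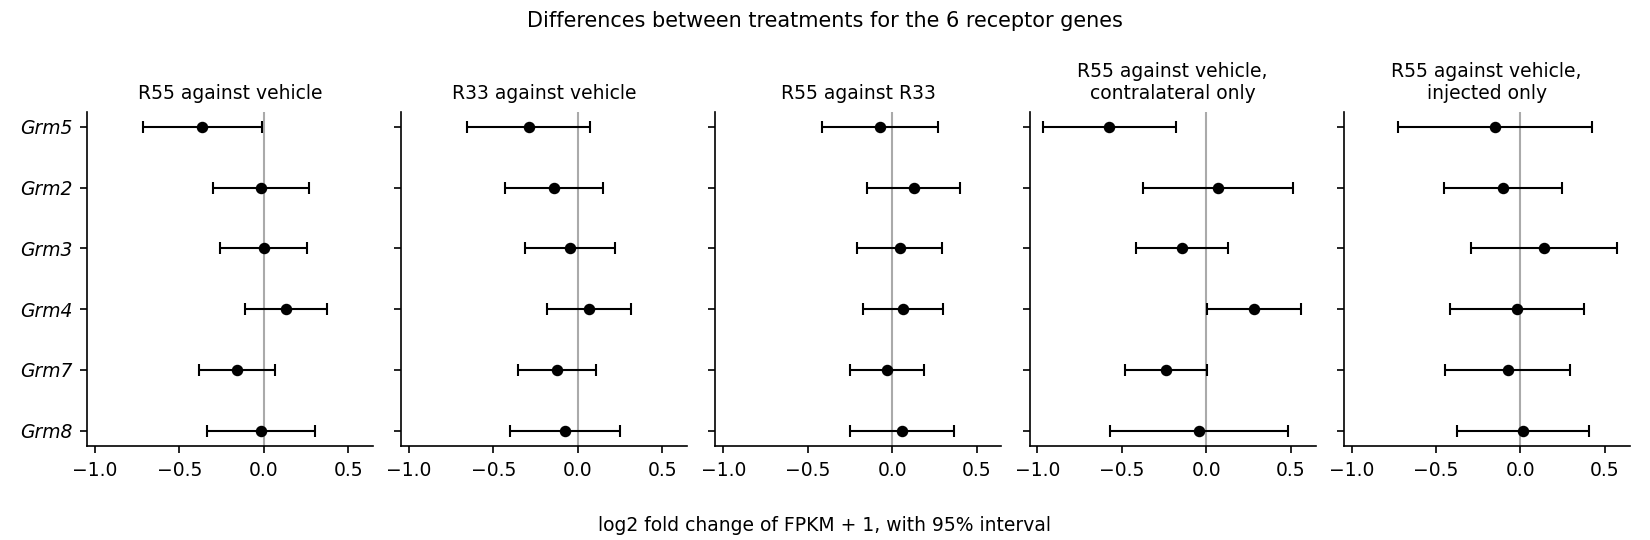
Log2 fold change of FPKM with 1 added (horizontal axis) for each receptor gene, from limma; points are estimates and bars 95% intervals. Panels give each drug against vehicle, the drugs against each other, and R55 against vehicle in either hemisphere alone. The interval of Grm5 ends at -0.0090 in the first panel and at -0.18 in the contralateral panel, and the intervals between the drugs all include 0.

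R33 was tested beside R55 at the same concentration and time. Grm5 again had the value farthest below 0. In R33-treated mice K, AE, O, N and AD it measured 22.8, 20.1, 23.6, 21.6 and 7.36 FPKM in the injected hemisphere, and 20.8, 19.8, 28.3 and 13.8 FPKM in the contralateral hemisphere of K, O, N and AD. Mouse AD was the lowest in both hemispheres, and the other R33-treated mice overlapped with the vehicle controls. The mean over mice was 19.8 ± 5.44 FPKM (SD, n = 5), a log2 fold change of -0.29 against vehicle (SE 0.177, adjusted p = 0.850, limma). Without mouse AD it was -0.058, so most of this value rests on that mouse. For Grm7 the log2 fold change was -0.12 (adjusted p = 0.856, limma) and 0.0034 without mouse AD.

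Of the others, Grm2 was at -0.14, Grm8 at -0.075, Grm3 at -0.047 and Grm4 at 0.066 on the log2 scale after R33, with 95% intervals that all include 0. Without mouse AD, Grm2 was at -0.12, Grm8 at -0.051, Grm3 at 0.095 and Grm4 at 0.11. Of the 6 receptor genes 0 were called and 0 had an unadjusted p-value under 0.05 (limma, and limma voom), where 0% of all tested genes were called and 5.87% had an unadjusted p-value under 0.05. The estimate was below 0 for 5 of 6, and for 42.5% of all tested genes. Mouse means without overlap between R33 and vehicle were found for 0 of 6, and for 0.709% of all tested genes. R33 and R55 share the same 4 vehicle-treated mice, so these values are not separate evidence from those of R55.

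Between R55 and R33, compared directly over 6 genes at matched concentration and time, log2 differences ran from -0.072 (Grm5) to 0.13 (Grm2), with Grm3, Grm4 and Grm8 at 0.046, 0.065 and 0.060 and Grm7 at -0.032, so 2 of 6 were below 0 (46.6% of all tested genes). The adjusted p-value was 0.999807 for each of them (limma). By limma and by voom 0 of 6 were called and 0 were under an unadjusted p-value of 0.05, against 0% and 1.15% of all tested genes. The 95% interval for Grm5 was -0.42 to 0.27, which covers ratios of R55 to R33 between 0.750 and 1.21. For Grm2 it was -0.15 to 0.40, or ratios between 0.904 and 1.32, and for Grm7, the narrowest, -0.25 to 0.19. These intervals leave room for differences of such sizes in either direction. Without mouse AD the value of Grm5 was -0.31 (95% interval -0.55 to -0.062, unadjusted p = 0.0160, adjusted p = 0.436, limma) and that of Grm7 -0.16 (adjusted p = 0.509), in a fit where 2 genes (0.0154%) were called and 10.3% of all tested genes had an unadjusted p-value under 0.05. Grm3 was then at -0.096, Grm2 at 0.11, Grm4 at 0.019 and Grm8 at 0.036.

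The injected and contralateral hemispheres were compared because the drug was given on one side. Over all treatments the receptor genes differed by -0.097 (Grm8) to 0.12 (Grm4) on the log2 scale, with Grm2 and Grm5 at -0.020, Grm7 at -0.021 and Grm3 at 0.015, and 0 of 6 were called or had an unadjusted p-value under 0.05 (limma, and limma voom), where 0% and 3.47% of all tested genes did. The estimate was below 0 for 4 of 6, and for 49.3% of all tested genes. Within mice, Grm5 was lower in the injected hemisphere of 4 of 4 vehicle-treated mice, with a mean difference of -0.18 on the log2 scale. It was higher in the injected hemisphere of 5 of 5 R55-treated mice, with a mean difference of 0.24, and higher in 2 of 4 R33-treated mice. Of all tested genes, 0.324% had those signs in all vehicle-treated and all R55-treated mice, and 0.617% had opposite signs in the treatments either way round. Grm7 was higher in the injected hemisphere of 4 of 5 R55-treated mice and lower in 4 of 4 R33-treated mice, with 2 of 4 in each direction after vehicle.

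An interaction term asked whether the R55 effect depended on the hemisphere. It was 0.42 for Grm5 (SE 0.345, adjusted p = 0.999, limma), and with the mouse as a block the same value had an SE of 0.185, an unadjusted p = 0.0384 and an adjusted p = 0.806. Before adjustment, 770 of 12976 tested genes reached p below 0.05 in the blocked fit, and 239 in the other (limma). In either fit 0 of 6 receptor genes and 0% of all tested genes were called. Without the block 0 of 6 receptor genes and 1.84% of all tested genes had an unadjusted p-value under 0.05, and 2 of 6 receptor genes and 58.3% of all tested genes were below 0. The other members were at 0.28 (Grm3), -0.17 (Grm2), 0.16 (Grm7), -0.30 (Grm4) and 0.061 (Grm8). With the length trend removed the value was 0.26, and Grm5 was lower in the injected hemisphere of 3 of 4 vehicle-treated mice and higher in that of 4 of 5 R55-treated mice. For R33 the interaction was largest for Grm2, -0.38 (SE 0.284, unadjusted p = 0.187, limma). For this term 0 of 6 receptor genes and 0% of all tested genes were called, 0 of 6 and 0.378% had an unadjusted p-value under 0.05, and 5 of 6 and 54.4% were below 0. The remaining estimates were 0.016 (Grm5), -0.082 (Grm3), -0.20 (Grm7), -0.097 (Grm4) and -0.058 (Grm8).

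**Figure D3:**
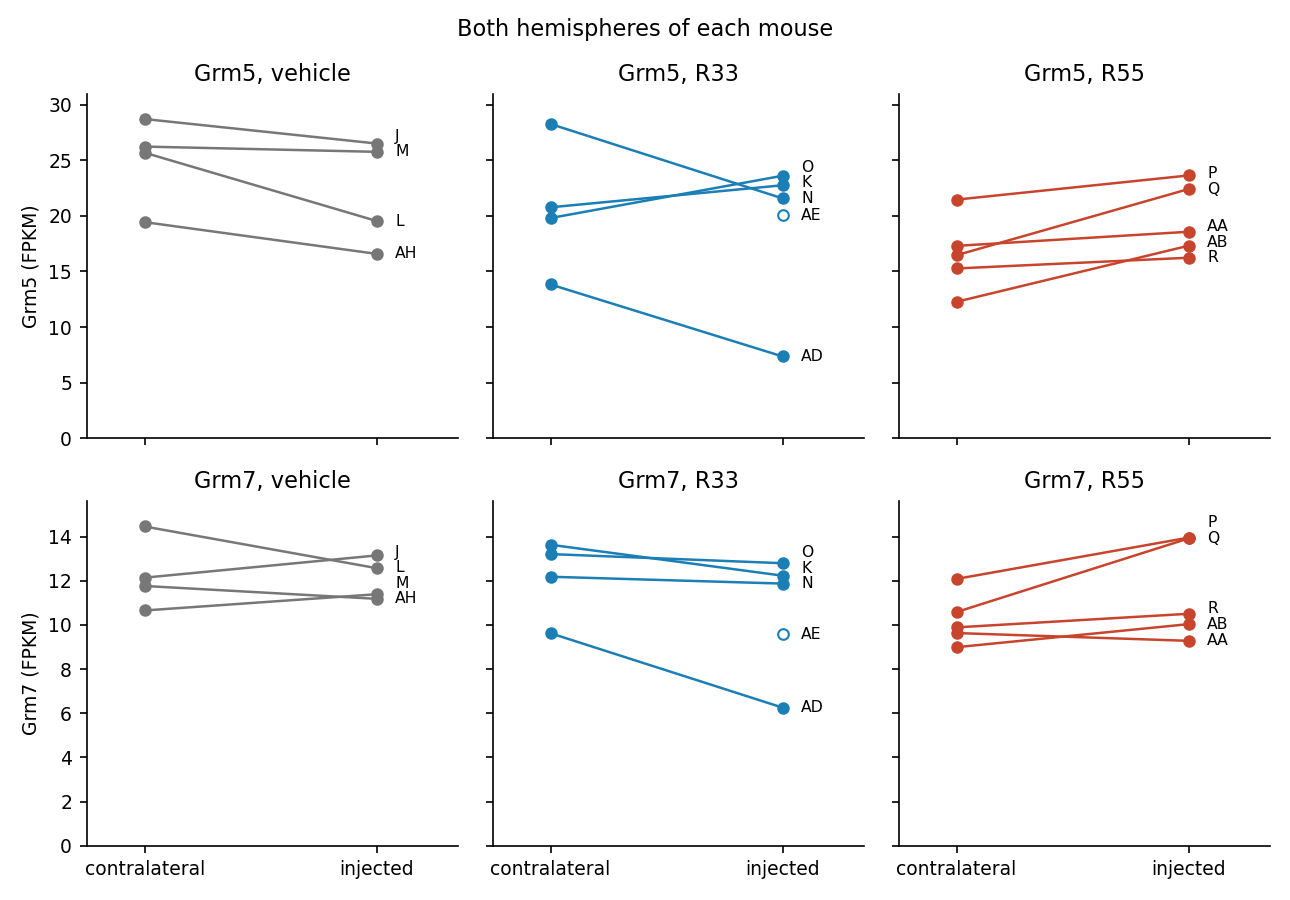
Grm5 (top) and Grm7 (bottom) in FPKM (linear axis from 0) in the contralateral and injected hemisphere of each mouse, joined by a line and named by the mouse label; the open point is mouse AE, with 1 library. Grm5 is lower in the injected hemisphere of all 4 vehicle-treated mice and higher in that of all 5 R55-treated mice.

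In the contralateral hemisphere alone, which was not injected and holds 1 library per mouse, the R55 differences were wider. Grm5 had a log2 fold change of -0.58 against vehicle (SE 0.184, 95% interval -0.97 to -0.18, unadjusted p = 0.00739, adjusted p = 0.368, limma), a fold of 0.671, and 4 of 5 R55 libraries were below every vehicle library. Leaving out each mouse in turn, it lay between -0.69 and -0.48. Grm4 measured 4.07, 4.39, 5.08 and 5.44 FPKM in the contralateral libraries of vehicle-treated mice J, M, L and AH and 6.84, 7.06, 4.51, 5.59 and 6.04 FPKM in those of R55-treated mice P, AA, Q, R and AB. All R55 libraries but that of mouse Q were above the highest vehicle library, and the log2 fold change was 0.28 (SE 0.130, unadjusted p = 0.0487, adjusted p = 0.432, limma). Grm7 was at -0.24 (SE 0.113, adjusted p = 0.439), with 4 of 5 R55 libraries below every vehicle library, and Grm2, Grm3 and Grm8 were at 0.071, -0.14 and -0.045. How many of all tested genes had 4 of 5 R55 libraries beyond the vehicle range was not counted.

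Thus 0 of 6 were called in the contralateral hemisphere and 2 had an unadjusted p-value under 0.05 (limma, and limma voom), where 0% and 11.5% of all tested genes did, and 4 of 6 were below 0, with 39.1% of all tested genes. In the injected hemisphere the same genes were at -0.15 (Grm5), -0.018 (Grm4) and -0.075 (Grm7), and Grm2, Grm3 and Grm8 at -0.10, 0.14 and 0.016, with 0 of 6 called or under an unadjusted p-value of 0.05, where 0% and 1.09% of all tested genes were, and 4 of 6 were below 0, with 45.2% of all tested genes. That the hemispheres differ in the R55 effect is not shown by these separate fits, and the interactions above did not pass the test. With the length trend removed Grm5 in the contralateral hemisphere was at -0.36 (adjusted p = 0.711, limma). Summed markers of excitatory cortical neurons (5 of 5 detected) ran from 726 to 998 FPKM in contralateral vehicle libraries and from 685 to 785 FPKM in those of R55, and those of GABAergic neurons (6 of 6 detected) from 488 to 553 and from 388 to 693 FPKM. In the fit over both hemispheres neither list had a called gene in R55 against vehicle, where 1 of 12976 tested genes was called. The part of these markers in the values of Grm5 was not tested.

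Across the 14 mice the receptor genes varied together to different degrees. The mouse means of log2 values of Grm5 and Grm7 had a Pearson correlation of 0.80, and 0.63 without mouse AD, while Grm4 and Grm8 had 0.61 in both cases. Next were Grm2 and Grm8 (0.49, and 0.48 without mouse AD), Grm3 and Grm5 (0.49, and -0.087 without) and Grm3 and Grm7 (0.43, and -0.081 without). Then came Grm3 and Grm4 (0.38, and 0.23 without) and Grm2 and Grm3 (0.37, and 0.32 without). Grm5 showed -0.013 with Grm8 and 0.048 with Grm4. These are descriptions over mice that share library preparation, treatment and label series, and no test was made. Among mice with 1-letter labels Grm5 averaged 22.5 ± 3.54 FPKM (SD, n = 9) and among those with 2-letter labels 16.3 ± 3.70 FPKM (SD, n = 5), and Grm7 averaged 12.3 ± 1.07 and 9.59 ± 1.25 FPKM. Without mouse AD the 2-letter means were 17.7 ± 2.18 FPKM for Grm5 and 10.01 ± 0.979 FPKM for Grm7 (SD, n = 4). The means of the label series were 21.2 and 19.8 FPKM for Grm2, 23.8 and 23.5 for Grm3, 5.69 and 5.68 for Grm4, and 4.18 and 4.27 for Grm8. With the series as a covariate, the log2 fold change of Grm5 after R55 was -0.29 (adjusted p = 0.647, limma).

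**Figure D4:**
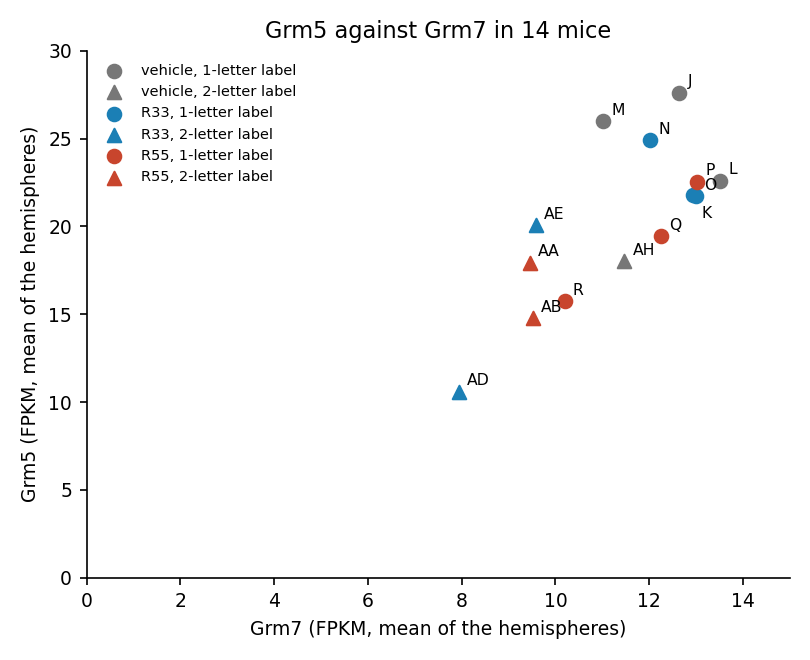
Grm5 against Grm7 in 14 mice (FPKM, mean of the hemispheres, both linear axes from 0), coloured by treatment, with circles for 1-letter and triangles for 2-letter mouse labels. Mouse AD has the lowest value of both genes, and the 2-letter mice lie to the lower left of most 1-letter mice.

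The tested genes outside the family whose mouse means were most like those of a receptor gene differed between members. For Grm5 they were Pds5b (Pearson correlation 0.97), Kidins220 (0.96) and Anks1b (0.96), with transcripts of 7316 to 10876 bp, and for Grm7 they included Nalcn (0.94) and Tmem67 (0.93). For Grm3 they were Xpr1 (0.89), Lifr (0.87) and Ntrk2 (0.86), for Grm2 Chsy3 (0.89), Prrt3 (0.86) and 1700030J22Rik (0.84), for Grm4 Mreg (0.85), Dpy19l1 (0.82) and Ankrd34b (0.81), and for Grm8 Kcnj12 (0.89), Racgap1 (0.87) and Necab1 (0.86). After removal of the length trend the correlation of Grm5 with Anks1b was 0.58, and that of Grm3 with Lifr was 0.33, while Kidins220 stayed at 0.92 with Grm5. These genes were picked for the highest correlations among all tested genes outside the family, so their values are high by selection. All 14 mice entered, mouse AD included, and no value without that mouse was computed.

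Genes that carry or bound mGlu signals were read from 5 lists of 47 genes, of which 46 were in the table by symbol and tested. After R55 0 of 46 were called (limma), 27 were below 0 and 19 above, and the median log2 fold change was -0.049 against 0.026 over all tested genes, of which 0.00771% were called and 39.8% were below 0. An unadjusted p-value under 0.05 was found for 5 of 46, and for 8.45% of all tested genes. Below 0 were 6 of 8 genes of the Gq arm (median -0.15), 9 of 12 genes for scaffolds and binding partners (median -0.12), 7 of 10 of the Gi/o arm (median -0.045) and 4 of 7 for glutamate supply and clearance (median -0.045). Of the regulators, which quench or desensitize the receptors, 8 of 9 were above 0 (median 0.085). The lists differ in length as well: median transcript length was 6982 bp in the Gq arm, 7488 bp in the scaffolds and 3009 bp in the regulators, and 3149 bp over all tested genes, and the part of length in these medians was not tested.

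Among the genes of these lists farthest below 0 after R55 was Homer3, a scaffold of the Homer family, at -0.34 (SE 0.240, adjusted p = 0.646, limma). Homer3 measured 4.82 ± 2.65 FPKM with vehicle (SD, n = 4 mice) against 3.33 ± 1.11 FPKM with R55 (SD, n = 5 mice). Farthest above 0 were Slc17a6, the vesicular glutamate transporter VGLUT2, at 0.36 (SE 0.259, adjusted p = 0.652), and Glul, the glutamine synthetase of astrocytes, at 0.18 (SE 0.118, adjusted p = 0.631). Homer1, the best known partner of mGlu5, was at 0.045 (SE 0.149, adjusted p = 0.927), and Slc1a2, the main glial glutamate transporter, was at -0.18 (SE 0.257, adjusted p = 0.807). Genes with an unadjusted p-value under 0.05 included Gnaq, Elfn2 and Grip1, all lower, and Rgs2, higher, and Homer1, Slc1a2 and these 4 are named after their values were seen.

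**Figure D5:**
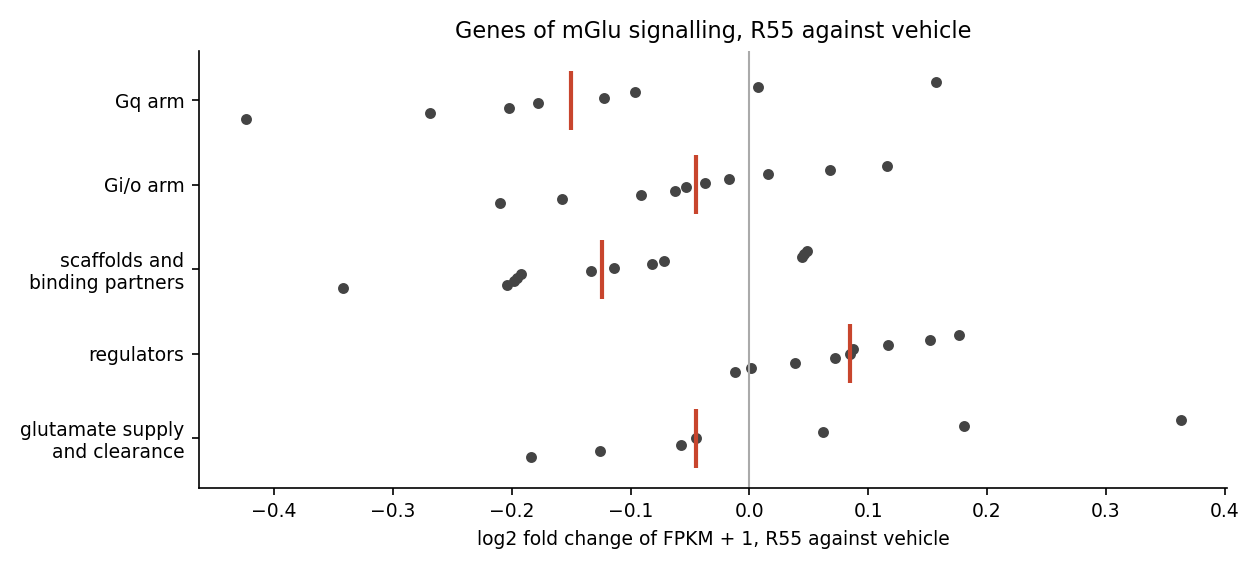
Log2 fold change of FPKM with 1 added in R55 against vehicle (horizontal axis) for the 46 tested genes of 5 lists of mGlu signalling; each point is a gene and each red line the median of its list. The medians run from -0.15 in the Gq arm to 0.085 in the regulators, and no gene was called.

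After R33, 30 of the 46 genes were below 0, with a median of -0.054 against 0.018 over all tested genes, of which 42.5% were below 0. Of the 46 genes 0 were called (limma), as of all tested genes. Elfn2, an adhesion protein that binds group III receptors, and Siah1a, a ubiquitin ligase that binds mGlu5, were the 2 of 46 with an unadjusted p-value under 0.05, against 5.87% of all tested genes. Without mouse AD 29 of 46 were below 0, with a median of -0.028, and 1 had an unadjusted p-value under 0.05. Between R55 and R33, 27 of 46 were above 0, 0 were called and 0 had an unadjusted p-value under 0.05, with a median of 0.012 against 0.0048 over all tested genes, and without mouse AD 29 of 46 were below 0, with a median of -0.027.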

How the data were processed

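RNA was measured in 27 libraries of 14 mice, with groups taken from the labelled treatment and side, and sides joined by mouse label. The authors prepared stranded mRNA libraries, used HISAT2 for alignment to GRCm39 and deposited the FPKM of all libraries as one table. The counting tool and annotation are not given in the sources used here. Another 5 libraries of the table were not used here. Of the values, 100.0% were whole fragments within 0.01 once scaled, which gave depths and transcript lengths.

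A limma 3.58.1 fit (R 4.3.3, intensity trend) was made to log2(FPKM + 1) of 12976 genes, those whose mean reached 1 FPKM. Terms were treatment and hemisphere, and genes were called at a Benjamini-Hochberg adjusted p-value under 0.05 over all tested genes. The script of this fit was run on simulated libraries drawn without a mouse effect. That run cannot show how the fit behaves where the hemispheres of a mouse are correlated. The hemispheres of a mouse are paired as the same animal, and their deviations from group means had an average correlation of 0.39 (13 mice, -0.079 to 0.65). Modelled, the correlation was 0.347 (statmod 1.5.0).

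Alternatives were median-of-ratios size factors, no filter, a pseudocount of 0.1, the mouse as a block, as a correlation or as 1 value, the compared treatments only, the label series as a covariate, limma voom, a lowess trend on transcript length (span 0.3) removed, and each mouse left out. Length removal combined with the correlation within mice, or with 1 value per mouse, was added after seeing the data. Gene positions and promoter windows come from GENCODE release M39 on GRCm39. Members, lists and tests were chosen with earlier results of these data known. The naming rule takes all members in each contrast, list genes that were called or had the 2 largest and 2 smallest fold changes after R55, and the 3 genes most like each member. Some genes this rule names are not reported here. P-values of the main fit measure the spread between libraries of these mice, with both hemispheres of a mouse counted as independent. For R55 against vehicle 1096 of 12976 genes had an unadjusted p-value under 0.05 in that fit. With 1 value per mouse 440 did (limma).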

Additional observations from a re-analysis of the deposited data

Results flagged for a closer look

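In the injected hemisphere of R33-treated mice, Grm5 was lowest in mouse AD at 7.36 FPKM, far below the other 4 libraries (20.1 to 23.6 FPKM): its gap to the nearest was 0.782 of the range, above the critical value of 0.71 for 5 libraries. In the injected hemisphere of vehicle-treated mice, Grm8 was lowest in mouse M at 2.36 FPKM, with a gap of 0.83 of the range against a critical value of 0.829 for 4 libraries. In all, 36 groups of libraries were examined in this way, and chance flags about 1 in 20. Neither library was left out of the values above.

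Grm5 was higher in the injected than in the contralateral hemisphere of every R55-treated mouse, with a mean difference of 0.240 on the log2 scale (5 mice, 0.083 to 0.46), and lower in every vehicle-treated mouse, with a mean difference of -0.183 (4 mice, -0.38 to -0.025). The difference was tested as an interaction and did not pass adjustment (adjusted p = 0.999, and 0.806 with the mouse as a block, limma). Of all tested genes, 0.324% had these signs and 0.617% had all vehicle-treated mice on one side of 0 and all R55-treated mice on the other.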

How the results depend on the processing

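Of 1092 fold changes of the receptor genes recomputed under alternatives, 1023 kept their direction, 69 turned and 0 passed the threshold (smallest adjusted p = 0.183, limma). The count of called receptor genes and of called signalling genes was 0 under every alternative run, the mouse as a replicate block included. For R55 against vehicle Grm5 lay between -0.48 and -0.28 with single mice left out and between -0.38 and -0.23 otherwise.

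Small values changed sign. With the label series as a covariate Grm3 in R55 against vehicle was 0.0107, Grm5 in injected against contralateral 0.00325, and Grm4 in R55 against vehicle in the injected hemisphere 0.00683. With the mouse as a replicate block Grm3 in injected against contralateral was -0.00529, and the R33 effect by hemisphere was -0.0259 for Grm5 and 0.0318 for Grm8. With voom Grm8 in R55 against vehicle in the injected hemisphere was -0.00297. The cause was not tested.

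Leaving out each mouse in turn also changed signs. For R55 against vehicle Grm2 ran from -0.146 to 0.135, Grm3 from -0.0831 to 0.0778 and Grm8 from -0.202 to 0.146. For R33 against vehicle Grm2 ran from -0.271 to 0.00523, Grm3 from -0.147 to 0.0949, Grm4 from -0.0401 to 0.115, Grm7 from -0.187 to 0.00341 and Grm8 from -0.263 to 0.0825. Between R55 and R33 Grm3 ran from -0.0961 to 0.146, Grm5 from -0.305 to 0.0392, Grm7 from -0.16 to 0.0311 and Grm8 from -0.0106 to 0.151. Between hemispheres Grm2 ran from -0.071 to 0.0284, Grm3 from -0.0243 to 0.0699, Grm5 from -0.0591 to 0.0258 and Grm7 from -0.0522 to 0.0109. For the R33 effect by hemisphere Grm3 ran from -0.166 to 0.0695, Grm4 from -0.266 to 0.0489, Grm5 from -0.0877 to 0.139 and Grm8 from -0.271 to 0.11, and for that of R55 Grm8 from -0.152 to 0.229. In the contralateral hemisphere R55 gave Grm2 from -0.133 to 0.328 and Grm8 from -0.221 to 0.222, and in the injected one Grm4 from -0.2 to 0.0677 and Grm8 from -0.182 to 0.107.

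The block was not run for treatment contrasts, where each mouse has a single treatment and the correlation within mice was modelled instead, nor for single hemispheres. One value per mouse was not run for hemisphere contrasts, and the compared treatments alone not for injected against contralateral. Groups held 4 or 5 mice. In the main fit, where both libraries of a mouse enter as independent, the 95% interval of Grm5 after R55 spans folds of 0.608 to 0.994. The interval with one value per mouse, given above, is wider and includes no change. Grm8 rests on as few as 173 fragments in a library.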

Other observations

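Grm2 and Grm8 were each highest in the same library, the contralateral hemisphere of vehicle-treated mouse L, at 34.5 and 8.49 FPKM, while the injected hemisphere of that mouse measured 24.8 and 4.68 FPKM. In that contralateral library the summed oligodendrocyte markers were 478 FPKM and the summed astrocyte markers 253 FPKM, the lowest of the 4 contralateral vehicle libraries for both lists, and the summed excitatory neuron markers were 998 FPKM, the highest. Without mouse L, the log2 fold change after R55 was 0.14 for Grm2 and 0.15 for Grm8, in place of -0.016 and -0.015.

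Grm4 was highest in the injected hemisphere of R33-treated mouse O, at 8.86 FPKM, where Grm2 had its lowest value of all libraries, 12.1 FPKM. In that library the summed excitatory neuron markers were 496 FPKM, the lowest of the 27 libraries, and the summed oligodendrocyte markers 2360 FPKM, the highest of the 27, and their part in these values was not tested. Grm8 was lowest of all libraries in the contralateral hemisphere of R55-treated mouse R, at 2.24 FPKM, against 3.96 FPKM in its injected hemisphere.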
